A study of Triticum aestivum with 18 samples.

Results

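The susceptible wheat line TXGBE281 was followed from the start of a greenbug attack to its second day, by setting leaves taken 48 h after infestation against leaves taken at 0 h. The members were chosen by array title: 3 arrays of susceptible leaves at 48 h and 3 at 0 h, 6 of the 18 arrays in the series. All 61179 probe sets that are not array controls were considered.

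The study hybridised leaf RNA of 2 wheat genotypes, TXGBE273 (resistant) and TXGBE281 (susceptible), to an Affymetrix wheat array, with 3 arrays for each line at 0, 24 and 48 h. All plants grew in a greenhouse and were sampled at the 3-leaf stage. The 0 h leaves are labelled as the control, and the 24 h and 48 h leaves carried greenbug biotype E. No leaves kept free of aphids for 24 or 48 h were analysed here, so infestation, plant age and sampling time cannot be told apart in any difference from 0 h. Whether replicates were separate plants is not stated in the labels, and p-values measure only the spread between these samples. In the rest of the text a "change" is a difference in mean log2(signal + 16), with its standard error (SE) from a limma model fitted to all 18 arrays. "Called" means a Benjamini-Hochberg adjusted p under 0.05 over the 46251 probe sets tested, and "rose" and "fell" are used of called probe sets.

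The greenbug is an aphid that feeds from the phloem of small grains and, on susceptible wheat, leaves yellowed and dying tissue around its feeding sites. Leaf cells under attack can switch on pathogenesis-related (PR) proteins, inhibitors of foreign enzymes and wall-building enzymes. The leaf is also the seat of photosynthesis: photosystem II splits water, the cytochrome b6f complex passes electrons on, and the Calvin cycle uses the energy to fix carbon through Rubisco. Benzoxazinoids are defence chemicals of young wheat, stored as glucosides and released by a β-glucosidase.

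Arrays of the same time were closer to each other than to those of the other time. Pearson correlations of log2(signal + 16) ran from 0.941 to 0.946 among the 3 susceptible 0 h arrays and from 0.960 to 0.963 among the 3 susceptible 48 h arrays. Between the 2 groups they ran from 0.861 to 0.884. The deposited signals had a trimmed mean of 500.1 on every array, so every change is relative to that level. The bacterial hybridisation controls, which the standard assay adds in equal amount to every sample, had mean signals of 11700 to 12440 at 0 h and 6468 to 8468 at 48 h. Only 1273 probe sets carried a gene symbol, covering 771 genes, of which 102 are known by more than a LOC number.

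The tissue label was checked against leaf genes. Rubisco large subunit (rbcL), phosphoribulokinase (PRK), the photosystem II proteins PsbO and PsbP and the cytochrome b6f iron-sulfur protein petC each had a probe set at 49799 or more on every 0 h array. Their brightest probe sets still read 8510 or more on every 48 h array. The summed signal of the 22 probe sets for grain storage proteins and amylase inhibitors was 7044 to 7877 at 0 h and 9333 to 12089 at 48 h. Most of it came from 1 avnlb probe set, with a mean of 6092 at 0 h and 6498 at 48 h. The 4 anther probe sets summed to 119.8 to 202.4 at 0 h and 101.8 to 107.6 at 48 h. Leaves are a mixture of tissues, and fewer cells of a type and less RNA per cell cannot be told apart in these data.

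By 48 h the susceptible leaf had changed across much of the array. Of the 46251 probe sets tested, 17064 were called (36.9%): 8250 rose (17.8%) and 8814 fell (19.1%). Without adjustment 20322 had p under 0.05. The median size of a called change was 1.21 on the log2 scale. Rises beyond 3 numbered 641 and falls beyond 3 numbered 607, while beyond 5 there were 119 rises and 37 falls. On 22321 probe sets (48.3%) the 3 arrays of one time lay wholly above or below the 3 of the other.

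The split between rises and falls rested on the scaling. Quantile normalization gave 8772 rises and 8089 falls, and centring each array on its median gave 10729 and 6595. Scaling on the hybridisation controls gave 16785 and 3512, and it moved the median change of all tested probe sets from -0.0768 to 0.553. The directions below are therefore relative to the trimmed mean, and those that turned under another scaling are named where they stand.

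Bright and dim probe sets moved differently. Among the 16752 tested probe sets with a mean signal under 100, 3.74% rose and 6.68% fell. Between 1000 and 3000 these shares were 39.0% and 29.8%. Among the 851 with a mean signal of 10000 or more, 29.0% rose and 52.4% fell, with a median change of -0.299. The highest signal on any susceptible array was 72379 to 83978 at 0 h and 48121 to 51424 at 48 h.

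**Figure D1:**
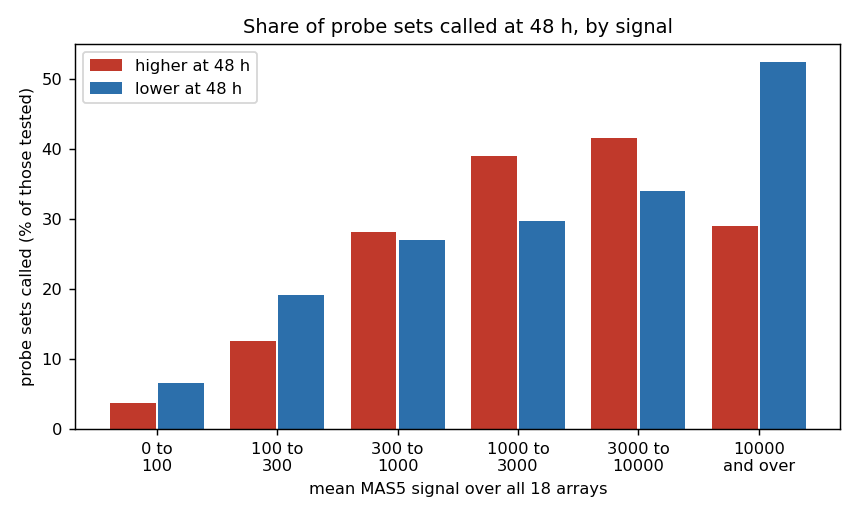
Share of tested probe sets called higher (red bars) or lower (blue bars) at 48 h than at 0 h in the susceptible line, in percent, by mean MAS5 signal over the 18 arrays. The brightest class holds 52.4% falls against 29.0% rises, while from 1000 to 10000 rises are the larger share.

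Some probe sets crossed the level used as the detection filter, the 40th percentile of the array. At 48 h, 865 (1.41% of all) were above it on all 3 arrays after being above it on none at 0 h, and 635 of these were called. The reverse held for 704 (1.15%), of which 573 were called. Over all tested, 36.9% were called. Both kinds were picked by their signals on these same arrays, so a high share of calls was built in. Most were dim where present, with median signals of 111.1 and 121.0. Over 1000 on average there were 44 of the first kind and 9 of the second.

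Among genes that carried a name, the strongest rises included a gliadin-like gene, a thaumatin-like PR protein, 2 β-tubulins and a xylanase inhibitor. The steepest falls included lgul, TaPrx1, GAPN, RPL9 and PEAMT1, and photosynthesis genes fell too. Of 163 tested probe sets for named genes, 26 rose and 58 fell (17.8% and 19.1% over all tested). Their median change was -0.39 against -0.0768 over all tested. Genes with several probe sets, such as rbcL and TaPrx1, count more than once here.

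**Figure D2:**
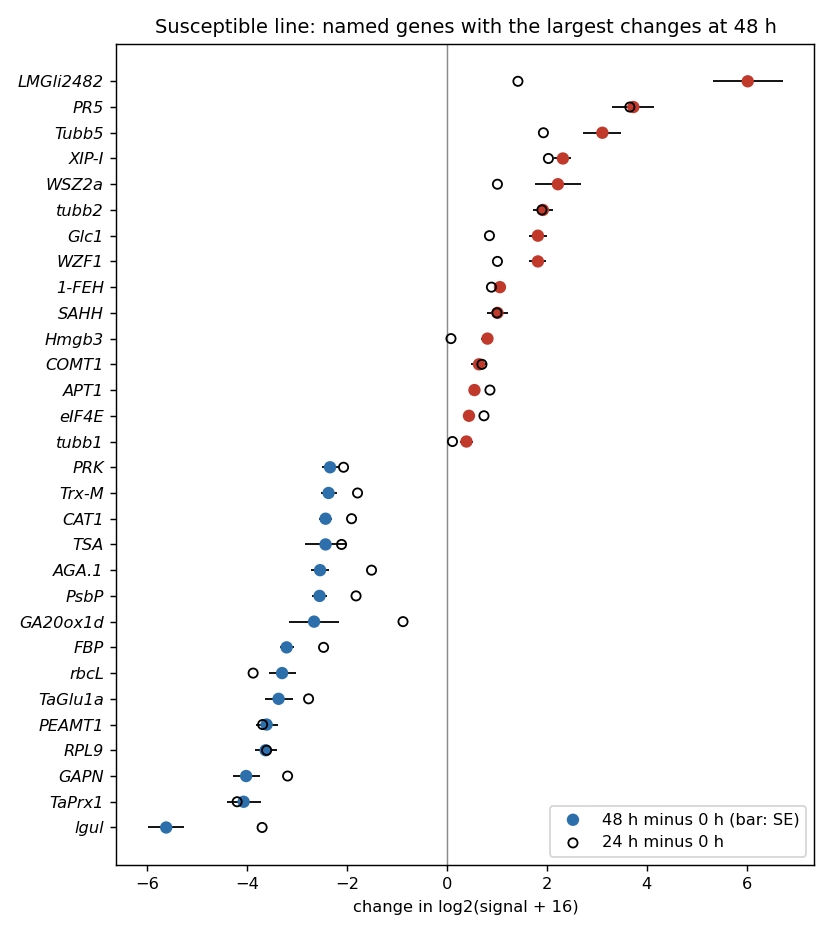
Change in log2(signal + 16) from 0 h for the 15 named genes with the largest rise (red) and the 15 with the largest fall (blue) at 48 h in the susceptible line, with SE bars, and at 24 h (open circles). The 48 h changes run from 6.02 for LMGli2482 to -5.62 for lgul.

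PR5 and 1 of the 2 tested Glc1 probe sets rose in the list of defence proteins. PR5, a thaumatin-like pathogenesis-related protein gene, read 1535, 866 and 904 on the 0 h arrays and 13038, 13050 and 17366 on the 48 h arrays. The lowest 48 h array was over 8 times the highest 0 h array. Its change was 3.73 ± 0.42 (SE, limma adjusted p = 3.95e-07), a 13.3-fold higher level. Glc1, placed among the defence genes by its symbol, read 1977, 1276 and 1542 at 0 h and 5197, 5491 and 6152 at 48 h, with no overlap and a change of 1.82 ± 0.18 (limma adjusted p = 7.68e-08). The list of defence proteins had 5 of its 10 probe sets tested, of which 2 rose and 0 fell. Over all tested, 17.8% rose and 19.1% fell. The list's median change was 0.993. The other 3, a second Glc1 probe set (0.99), a wheat germ agglutinin gene, WGA2 (0.53), and a thionin gene, were not called.

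XIP-I, a protein that blocks the xylanases of microbes, was bright before and brighter after. Its 2 probe sets read 4408 to 7585 at 0 h and 23952 to 29288 at 48 h. Their changes were 2.32 ± 0.17 and 1.88 ± 0.14 (limma adjusted p = 1.17e-09 and 7.23e-10). Serpins, inhibitors of serine proteases, moved both ways and stayed dim. WSZ2a read 9.53, 6.61 and 18.2 at 0 h, all under the 40th percentile of their arrays, and 125, 85.9 and 122 at 48 h. Against that level it rose at least 1.53-fold (limma adjusted p = 0.000575). WSZ1b went from 98.1, 67.6 and 135 to 22.2, 38.7 and 12.3, all 3 of the latter under the 40th percentile. Against that level it fell at least 1.58-fold (limma adjusted p = 0.00626), and the call was lost under hybridisation control scaling. In the list of the xylanase inhibitor and serpins, all 4 tested probe sets of 7 were called. Of these, 3 rose and 1 fell (17.8% and 19.1% over all tested).

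The largest named rise was in LMGli2482, a gene named for a low-molecular-weight gliadin. Gliadins are storage proteins of the grain. One of its probe sets read 9.48, 10.2 and 15.9 at 0 h and 1039, 1977 and 2758 at 48 h. On all 3 of the 0 h arrays it was under the 40th percentile, and against that level the rise was at least 22.0-fold. The fitted change was 6.02 ± 0.70 (limma adjusted p = 5.65e-07), and 6.01 ± 0.74 at the gene's second probe set. No other grain gene was called higher. Of 16 tested grain probe sets, 2 rose, both of LMGli2482, and 2 fell. Over all tested 17.8% rose and 19.1% fell, so these counts lie near the background. The other 12 were not called, and the list's median change was 0.0303.

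Enzymes of methyl transfer and the wall also changed. COMT1, which methylates precursors of lignin, rose from 10922, 8629 and 11165 to 16044, 15122 and 16387, by 0.64 ± 0.15 (limma adjusted p = 0.00144). SAHH, which clears the by-product of methyl transfer, rose from 7697, 5924 and 6672 to 13769, 12354 and 14658, by 1.01 ± 0.21 (limma adjusted p = 0.0006). Both sets of arrays were fully apart. A second, brighter SAHH probe set was not called, with a change of 0.36 ± 0.17 (limma adjusted p = 0.106). PEAMT1, a methyltransferase that makes phosphocholine for choline and membrane lipids, went the other way, from 12616, 18640 and 16451 to 1517, 1231 and 1100. That fall was 3.61 on the log2 scale (SE 0.22, limma adjusted p = 6.68e-11), leaving 12.2 times less signal. In the methyl transfer and lignin list 2 of 4 tested probe sets rose and 1 fell (17.8% and 19.1% over all tested). The remaining 1 was not called, and the list's median change was 0.502.

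**Figure D3:**
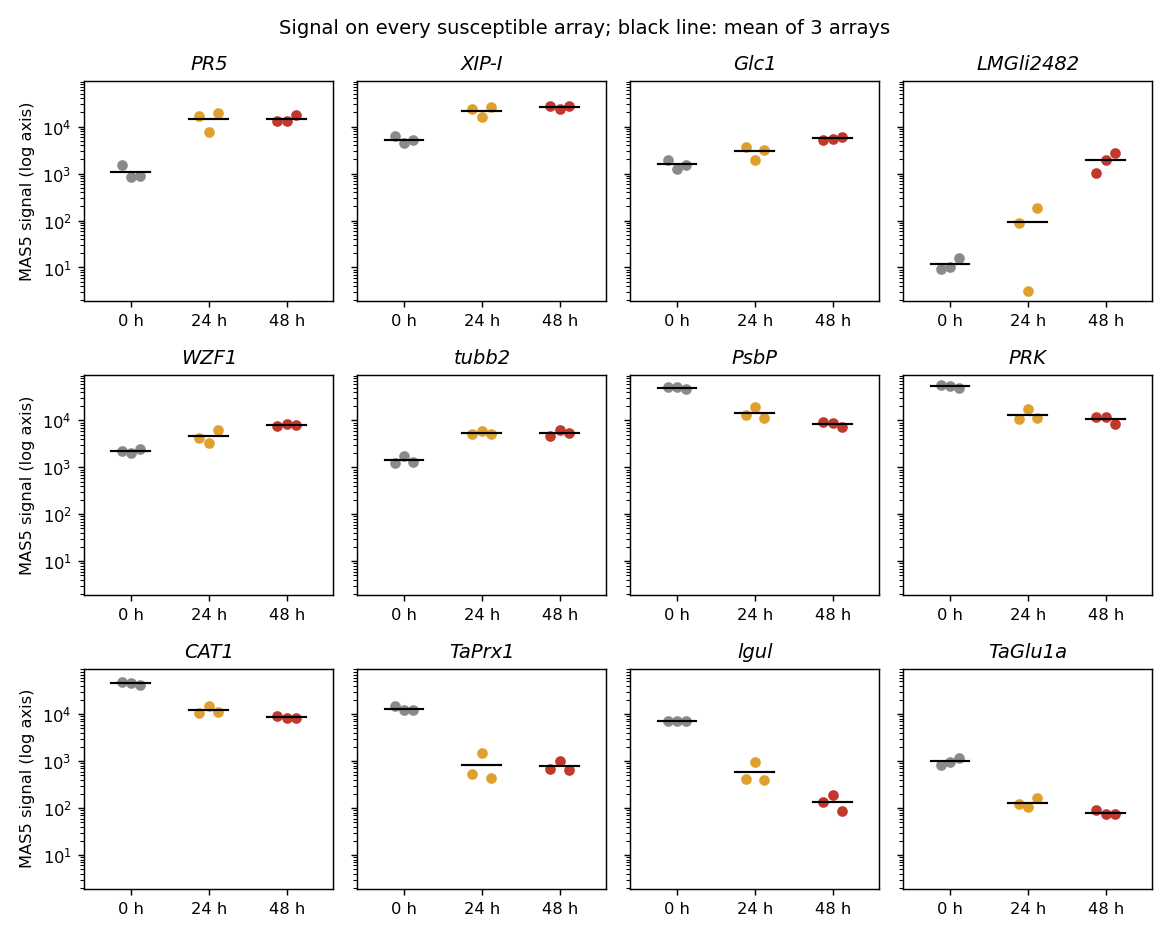
MAS5 signal (log axis) of 12 genes on each of the 9 susceptible arrays at 0 h (grey), 24 h (orange) and 48 h (red), with the mean of 3 arrays as a black line. At 48 h every array of PR5, XIP-I, Glc1, LMGli2482, WZF1 and tubb2 is above the 0 h arrays, and every array of PsbP, PRK, CAT1, TaPrx1, lgul and TaGlu1a is below them.

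Photosystem and electron transport genes fell. PsbP, a protein of the water-splitting side of photosystem II, read 50905, 51888 and 46718 at 0 h and 9289, 8893 and 7363 at 48 h at one probe set. All 3 infested arrays were under 0.2 of the lowest 0 h array. The change was -2.55 ± 0.15 (limma adjusted p = 5.91e-11), and -1.45 ± 0.11 at a second PsbP probe set (limma adjusted p = 1.65e-09). petC went from 60570, 56273 and 52070 to 26012, 24099 and 22587, a change of -1.22 ± 0.10 (limma adjusted p = 4.78e-09). A second petC probe set was not called and had a positive change under every setting that tested it (0.47 to 1.69). PsbO, another water-splitting protein, went from 59696, 58910 and 53917 to 35060, 31377 and 23921, a change of -0.95 ± 0.13 (limma adjusted p = 3.19e-06). PsbO lost its call under quantile normalization (-0.29) and under hybridisation control scaling (-0.22). Of the 5 probe sets in the list 4 fell and 0 rose (19.1% and 17.8% over all tested), with a median change of -1.22. Under hybridisation control scaling the counts were 3 lower and 1 higher.

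Carbon fixation and triose phosphate metabolism showed 14 falls and 0 rises among 26 tested probe sets of 34 (19.1% and 17.8% over all tested). The other 12 were not called, and the median change was -0.994. Most of the tested probe sets and most of the falls belonged to the single gene rbcL, so the counts are weighted to that gene. PRK, which makes the CO2 acceptor of the Calvin cycle, read 57248, 54988 and 49799 at 0 h and 12058, 11763 and 8510 at 48 h. FBP, a fructose bisphosphatase, read 20835, 18031 and 17043 and then 2147, 2080 and 1775. GAPN, a non-phosphorylating glyceraldehyde phosphate dehydrogenase of the cytosol, read 7821, 9310 and 8998 and then 556, 632 and 401. None of the 3 genes had overlapping groups. Their changes were -2.34 ± 0.17, -3.21 ± 0.14 and -4.02 ± 0.27 (limma adjusted p = 8.68e-10, 1.51e-12 and 2.83e-10). Pgk-1, a phosphoglycerate kinase, changed by -1.87 ± 0.25 (limma adjusted p = 3.87e-06).

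The large Rubisco subunit did not give one answer. Its 2 brightest probe sets read 60183 to 77318 at 0 h and 41018 to 49640 at 48 h, and both changed by -0.58 (SE 0.11 and 0.13, limma adjusted p = 0.000302 and 0.000982). Under quantile normalization these turned to 0.12 and 0.10, and under hybridisation control scaling both to 0.15. A dimmer rbcL probe set read 6822, 6094 and 6401 at 0 h and 569, 645 and 714 at 48 h, a change of -3.30 ± 0.27 (limma adjusted p = 3.58e-09). Many other rbcL probe sets were dim and not called, with changes of both signs, such as 0.49 and -1.1. rbcL is a chloroplast gene with many probe sets, which can differ in the part of the transcript they read. For the whole carbon list, hybridisation control scaling left 7 falls and 0 rises.

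Redox and detoxification held the steepest named fall. lgul encodes glyoxalase I, which clears the toxic sugar by-product methylglyoxal with glutathione. It read 7147, 7334 and 7270 at 0 h and 137, 191 and 85.4 at 48 h, a change of -5.62 ± 0.36 (limma adjusted p = 1.23e-10), or 49.3 times less signal. A second lgul probe set changed by -3.80 ± 0.19 (limma adjusted p = 7.19e-12). The 3 brighter probe sets of TaPrx1, a redox gene by its symbol, read 12498 to 20186 at 0 h and 653 to 1449 at 48 h. These changed by -3.91 to -4.07, and the dimmer remaining one, under the 40th percentile on every 48 h array, fell at least 4.52-fold against that level.

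CAT1, a catalase that breaks down hydrogen peroxide, read 49186, 46283 and 42690 at 0 h and 9089, 8302 and 8221 at 48 h. The groups were far apart, and the change was -2.43 ± 0.13 (limma adjusted p = 1.72e-11). Trx-M, an m-type thioredoxin of the chloroplast that switches enzymes with light, went from 49616, 45305 and 46592 to 8018, 12293 and 7632, a change of -2.37 ± 0.16 (limma adjusted p = 3.88e-10). Of 3 tested probe sets of GSTZ1, a glutathione transferase, 1 fell, by 0.42 on the log2 scale (SE 0.08, limma adjusted p = 0.000393), and it read 0.31 higher under hybridisation control scaling. The other 2 changed by -0.21 and -0.19 with no call. In this list 10 of 13 tested probe sets fell and 0 rose (19.1% and 17.8% over all tested). Its median change was -2.43, the lowest of all lists together with the benzoxazinoid list.

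Benzoxazinoid release and indole supply had 3 tested probe sets, and all 3 fell (19.1% over all tested). TaGlu1a, a β-glucosidase that frees benzoxazinoids from their stored glucosides, read 824, 981 and 1151 at 0 h and 90.5, 75.6 and 74.2 at 48 h. Its change was -3.37 ± 0.28 (limma adjusted p = 5.86e-09). TSA, a tryptophan synthase α subunit, the kind of enzyme that makes indole, read 41048, 38135 and 36446 and then 9076, 10681 and 8660, with no overlap and a change of -2.03 ± 0.14 (limma adjusted p = 2.73e-10).

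Storage carbohydrate genes split. 1-FEH, an exohydrolase that breaks fructans down, rose from 4633, 5266 and 5370 to 10692, 9741 and 11409, a change of 1.06 ± 0.11 (limma adjusted p = 8.47e-08). AGA.1, an ADP-glucose pyrophosphorylase gene of starch synthesis, fell from 4733, 4669 and 3991 to 726, 823 and 714, a change of -2.54 ± 0.18 (limma adjusted p = 7.37e-10). A second AGA.1 probe set changed by -1.86 but lost its call under hybridisation control scaling (-1.23). The call was also lost without the first 48 h array (-1.29) or the second 0 h array (-1.59). AGP-S, the small subunit of the same enzyme, changed by -0.80 ± 0.10 (limma adjusted p = 8.22e-07) but by -0.07 under hybridisation control scaling. Of 8 tested probe sets 1 rose and 6 fell (17.8% and 19.1% over all tested). Hybridisation control scaling left 1 rise and 2 falls. Of the 6 falls as deposited, 3 belonged to 6-FEH, a second exohydrolase. Its signals were under 200 on all 0 h arrays and under 61 on all 48 h arrays. Of these 3, 2 were under the 40th percentile on every 48 h array, and both lost the call when a single array was dropped: one without the first 48 h array (-1.28) or the third 0 h array (-1.42), the other without the second 0 h array (-1.45).

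Among tubulin, profilin and chromatin genes 9 of 31 tested probe sets rose, 4 fell and 18 were not called, with a median change of 0.197. Over all tested probe sets 17.8% rose and 19.1% fell, and the list was not tested against these shares. Hybridisation control scaling gave 13 rises and 0 falls in this list. tubb2, a β-tubulin, read 1243, 1777 and 1308 at 0 h and 4750, 6391 and 5318 at 48 h, a rise of 1.92 ± 0.20 (limma adjusted p = 1.72e-07). Another β-tubulin, Tubb5, read 214, 33.5 and 43.1 and then 741, 696 and 793 at one probe set, a rise of 3.11 ± 0.38 (limma adjusted p = 9.58e-07). Tubb4, of the same family, fell by 0.83 on the log2 scale (SE 0.10, limma adjusted p = 5.05e-07) and by 0.10 with no call under hybridisation control scaling. As deposited, the tubulins did not share a direction. Hmgb3, a DNA-binding high-mobility-group protein of chromatin, rose by 0.81 ± 0.12 and 0.60 ± 0.10 at its 2 probe sets (limma adjusted p = 1.98e-05 and 7.45e-05). PRO1, a profilin that binds actin, fell by 0.45 and 0.62 on the log2 scale as deposited, yet read 0.28 and 0.11 higher under hybridisation control scaling.

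Translation genes had 2 rises and 2 falls among 10 tested probe sets, close to the 17.8% and 19.1% over all tested, and a median of 0.0702. RPL9, a ribosomal protein gene that the gene table also calls CL9, read 5383, 5031 and 5233 at 0 h and 343, 518 and 381 at 48 h. Its change was -3.63 ± 0.22 (limma adjusted p = 7.86e-11). The cap-binding factor eIF4E, which recruits mRNA to the ribosome, rose from 2387, 1990 and 2292 to 2731, 3205 and 3091, by 0.44 ± 0.09 (limma adjusted p = 0.000808). RPS29 went both ways, 1.25 ± 0.24 at one probe set and -1.80 ± 0.39 at another (limma adjusted p = 0.000219 and 0.000805). Hybridisation control scaling gave 8 rises and 2 falls in this list.

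**Figure D4:**
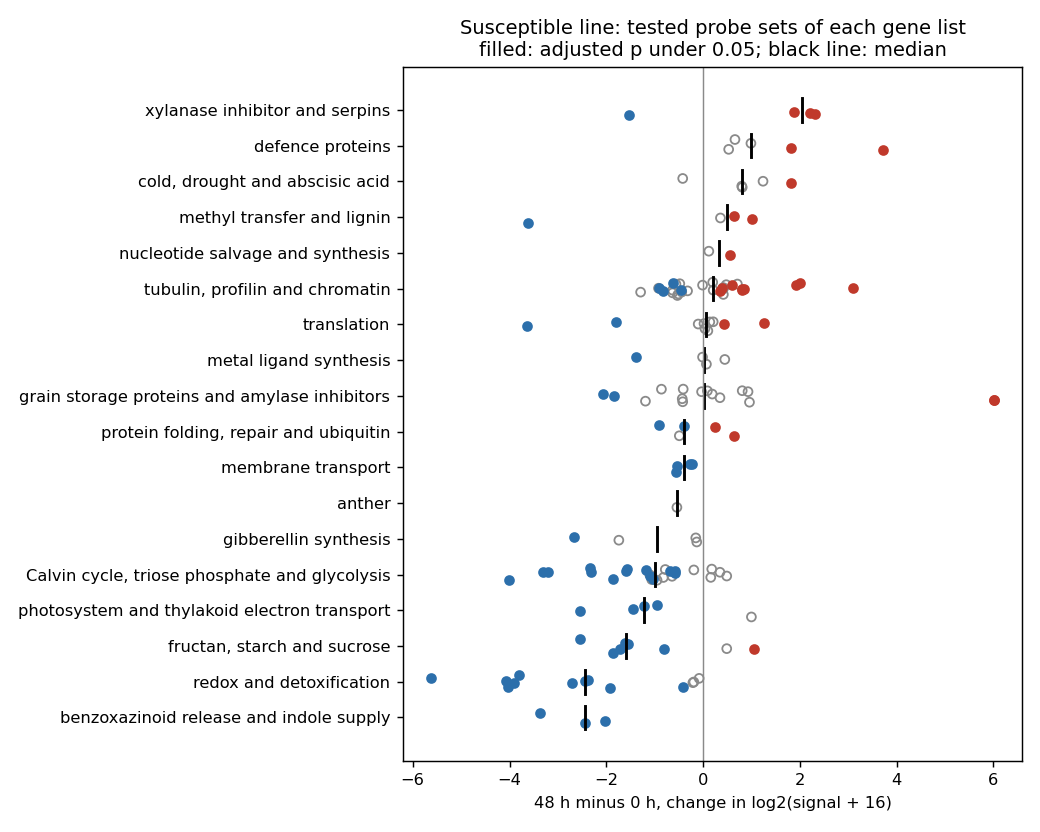
Change in log2(signal + 16) from 0 h to 48 h in the susceptible line for each tested probe set of the 18 gene lists, with called probe sets filled (red higher, blue lower), others open, and the list median as a black line. The redox list has a median of -2.43 with 10 of 13 lower, and the xylanase inhibitor and serpin list has a median of 2.05 with 3 of 4 higher.

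Among hormone and stress genes, WZF1, a zinc-finger protein gene, rose from 2219, 2003 and 2491 to 7445, 8363 and 7941, by 1.82 ± 0.17 (limma adjusted p = 3.55e-08). It was the single call among 5 tested probe sets of the cold, drought and abscisic acid list, whose other members are dehydrin and late embryogenesis genes. GA20ox1d, a gibberellin 20-oxidase that makes precursors of active gibberellins, read 228, 308 and 291 at 0 h and 53.2, 39.2 and 9.29 at 48 h, all 3 of the latter under the 40th percentile. Against that level the fall was at least 4.06-fold (limma adjusted p = 0.000208). The other 3 gibberellin probe sets were not called. TaPCS1, which makes metal-binding phytochelatins from glutathione, fell from 692, 986 and 722 to 302, 280 and 294, a change of -1.39 ± 0.19 (limma adjusted p = 5.31e-06). APT1, an adenine salvage enzyme, rose by 0.55 ± 0.08 (limma adjusted p = 9.36e-06).

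Membrane transport showed how far scaling reaches. All 4 tested probe sets fell as deposited (19.1% over all tested), with a median change of -0.401. Of these, 3 read ha1, a plasma membrane proton pump. ha1 changed by -0.22, -0.27 and -0.53. The first lost its call when any of 5 of the 6 arrays was dropped (-0.26 to -0.18), and the second without the second array of either time (-0.21 and -0.24). Quantile normalization turned the first 2 to 0.33 and 0.34, and hybridisation control scaling turned all 3 to 0.51, 0.46 and 0.20. TaTPC1, a calcium-permeable channel of the vacuole membrane, changed by -0.56 as deposited and by 0.17 under hybridisation control scaling. The protein folding and ubiquitin list had 2 rises and 2 falls among 5 tested (17.8% and 19.1% over all tested), and FKBP70, a prolyl isomerase, went from -0.39 to 0.34 under that scaling.

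Counting genes with and without a name, 1096 annotated probe sets were tested and 598 (54.6%) were called, 293 higher and 305 lower. Over all tested, 36.9% were called. That share ran from 10.4% at a mean signal under 100 to 81.4% at 10000 or more, and the annotated share was not adjusted for signal. Of 242 genes with at least 2 tested probe sets, 111 had at least 2 called, and 13 of those had calls in both directions. The largest rise of an annotated gene without a name was in LOC543438, which read 106, 121 and 169 at 0 h and 11296, 9600 and 11999 at 48 h. Its change was 6.23 ± 0.30 (limma adjusted p = 2.96e-12). LOC543330 became one of the bright signals of the leaf, from 1442, 658 and 1018 to 37875, 33186 and 37157, a change of 5.16 ± 0.26 (limma adjusted p = 6.25e-12). LOC543196 and LOC543097 rose by 6.05 ± 0.45 and 5.07 ± 0.26 (limma adjusted p = 1.18e-09 and 9.4e-12).

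Falls of the same size occurred in genes without a name. LOC100125679 read 14713, 13402 and 14343 at 0 h and 284, 236 and 102 at 48 h, a change of -6.09 ± 0.30 (limma adjusted p = 4.17e-12). LOC543499 fell from 4409, 4300 and 4408 to 130, 183 and 25.3, a change of -5.37 ± 0.53 (limma adjusted p = 6.2e-08). LOC100037528, LOC543104 and LOC543329 were all above 1100 on every 0 h array and under the 40th percentile on every 48 h array. Against that level they fell at least 18.1-fold, 23.2-fold and 19.1-fold.

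The extremes of the whole array had no gene symbol. Probe set Ta.9225.1.S1_at read 4.51, 9.49 and 17.9 at 0 h and 18870, 15811 and 20836 at 48 h. It was under the 40th percentile on every 0 h array, and the rise against that level was at least 225-fold (fitted change 9.46 ± 0.49, limma adjusted p = 8.61e-12). At the other end, Ta.9172.1.S1_at went from 16347, 15811 and 15540 to 90.0, 105 and 70.8, a change of -7.26 ± 0.59 (limma adjusted p = 3.56e-09). Ta.28289.1.S1_x_at changed by 8.86 ± 0.48. TaAffx.1074.1.S1_at was under the 40th percentile on every 48 h array, and against that level it fell at least 122-fold.

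The second day was then set against the first in the same line. From 24 h to 48 h, 4687 of the 46251 probe sets were called (10.1%), 2228 higher (4.82%) and 2459 lower (5.32%). Dropping the third 48 h array left 2904 calls and dropping the second 24 h array left 2924. Hybridisation control scaling gave 2963 higher and 440 lower. LMGli2482 had the largest named rise in this interval: it read 88.7, 3.11 and 187 at 24 h against 1039, 1977 and 2758 at 48 h. The groups did not overlap, and the difference was 4.60 ± 0.70 (limma adjusted p = 0.000242). PR5, XIP-I and tubb2 differed between 24 h and 48 h by 0.07 ± 0.42, 0.29 ± 0.17 and 0.02 ± 0.20 (limma adjusted p = 0.959, 0.372 and 0.978), and at 24 h they stood at 3.66, 2.03 and 1.90 above 0 h.

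Several genes continued past the first day in the direction they had taken. Glc1 was 0.85 above 0 h at 24 h and rose by a further 0.97 ± 0.18 (limma adjusted p = 0.00152). WZF1 was 1.01 above and rose by 0.81 ± 0.17 (limma adjusted p = 0.00405). lgul was 3.70 below 0 h, on the log2 scale, and fell by a further 1.93 (SE 0.36, limma adjusted p = 0.00136). AGA.1 had changed by -1.51 and then by -1.03 ± 0.18 (limma adjusted p = 0.00101). FBP had changed by -2.47 and then by -0.73 ± 0.14, and PsbP by -1.82 and then by -0.73 ± 0.15 (limma adjusted p = 0.00202 and 0.00374). The second-day falls of FBP and PsbP lost their calls under hybridisation control scaling, at -0.45 and -0.44. The PsbP call was also lost when only the arrays compared were fitted, at -0.73.

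Other genes moved on the second day without a call on the first. Hmgb3 differed from 0 h by 0.00 and 0.08 at 24 h, then rose by 0.60 ± 0.10 and 0.72 ± 0.12 (limma adjusted p = 0.000667 and 0.000642). One RPS29 probe set had differed by -0.11 and rose by 1.36 ± 0.24 (limma adjusted p = 0.000752). FKBP70 had differed by 0.18 and fell by 0.57 on the log2 scale (SE 0.11, limma adjusted p = 0.00159), with the call lost under hybridisation control scaling at -0.29. LOC606356 rose by 3.32 ± 0.63 and LOC100037618 by 2.28 ± 0.44 (limma adjusted p = 0.00152 and 0.00185), from levels that had not been called at 24 h.

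A few reversed course. LOC542853 read 2741, 2239 and 2645 at 0 h and 5531, 4484 and 4215 at 48 h. In between it had changed by -1.95 ± 0.16, and the step from 24 h to 48 h was 2.84 ± 0.16 (limma adjusted p = 1.12e-08). LOC542812 had changed by 1.02 ± 0.32 at 24 h and then by -2.23 ± 0.32, which left it under its 0 h level. LOC100125679, already 3.43 under 0 h on that scale, had the largest second-day fall of an annotated gene, -2.66 ± 0.30 (limma adjusted p = 1.28e-05).

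The last comparison asked where the 48 h change of the susceptible line differed from that of the resistant line. The difference of the changes, susceptible minus resistant, was called for 2337 of 46251 probe sets (5.05%), 1169 higher (2.53%) and 1168 lower (2.53%). Without the variance trend the count was 1238. Dropping the third susceptible 48 h array left 1266 and dropping the second resistant 48 h array left 1507. Hybridisation control scaling split the calls into 1304 higher and 271 lower.

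TaGlu1a was the named gene with the most negative difference. In the resistant line it read 1194, 2284 and 1914 at 0 h and 2628, 937 and 1659 at 48 h, groups that overlap. The susceptible arrays went from 824 or more to 90.5 or less. Resistant leaves changed by -0.12 ± 0.28 and susceptible leaves by -3.37 ± 0.28, a difference of -3.26 ± 0.40 (limma adjusted p = 3.74e-05). UBC1, a ubiquitin-conjugating enzyme, differed the other way at one probe set. There it went from 750, 456 and 452 to 799, 839 and 893 in susceptible leaves, and from 669, 618 and 720 to 514, 419 and 508 in resistant leaves. The difference was 1.1 ± 0.24 (limma adjusted p = 0.00822).

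Several unnamed genes went in opposite directions. In susceptible leaves one probe set of LOC543233 read 848, 368 and 301 before infestation and 132, 172 and 166 after 48 h. Its resistant arrays read 865, 983 and 2361 and then 33883, 20649 and 23756. The resistant 48 h arrays were all over 100 times the susceptible ones. The difference of the changes was -5.78 ± 0.63 there and -6.01 ± 0.46 at its second probe set (limma adjusted p = 9.63e-06 and 1.28e-07). The susceptible fall by itself lost its call without the first 0 h array (-1.02 and -0.90), and at this probe set also without the first 48 h array (-1.35). LOC543363 and LOC543234 both differed by -5.22 (SE 0.40 and 0.65).

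In the other direction, LOC543085 rose in susceptible leaves, from 359, 209 and 317 to 2015, 1887 and 3359. Resistant arrays of this gene read 215, 326 and 266 and then 212, 93.0 and 108. The difference was 3.90 ± 0.52 (limma adjusted p = 8.37e-05). LOC606366 rose by 4.89 ± 0.30 in susceptible and by 1.37 ± 0.30 in resistant leaves, and LOC543438 by 6.23 ± 0.30 and 2.86 ± 0.30. TaAffx.1074.1.S1_at, with no gene, stood at 7522 to 10129 on susceptible 0 h arrays and at 42.0 to 51.7 at 48 h. Its resistant arrays fell less, from 8752, 14765 and 11953 to 5968, 3771 and 3768. That change was -1.39 ± 0.24 (limma adjusted p = 8.74e-05).

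**Figure D5:**
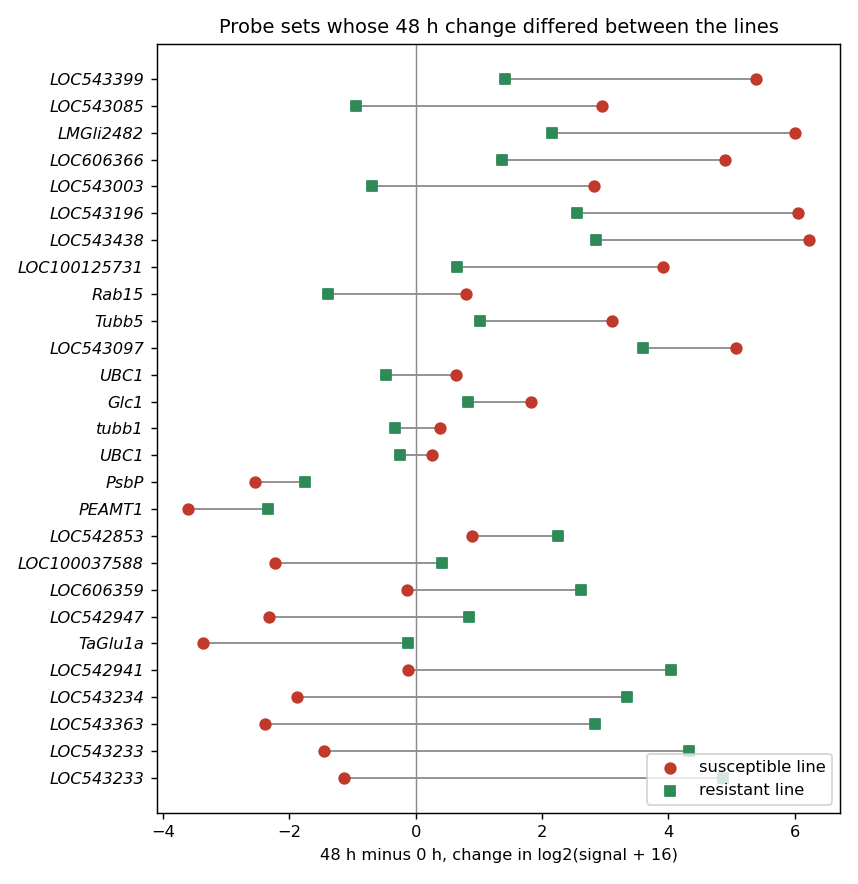
Change in log2(signal + 16) from 0 h to 48 h in the susceptible (red circles) and resistant (green squares) line for annotated probe sets whose change differed between the lines at an adjusted p under 0.05. LOC543233 is at -1.14 against 4.87 at one probe set, and LOC543085 at 2.95 against -0.95. LOC543399, LMGli2482, LOC100125731 and LOC606359 were under the 40th percentile on every susceptible 0 h array, so their plotted changes depend on the offset. The same holds for LOC100037588, under it on every susceptible 48 h array, and for Rab15, under it on every resistant 48 h array.

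PR5, XIP-I, CAT1, lgul and PRK were not called different between the lines. For PR5 the difference was 0.91 ± 0.60 (limma adjusted p = 0.478), for XIP-I 0.47 ± 0.25 (0.338), for CAT1 -0.59 ± 0.19 (0.0807), for lgul -0.52 ± 0.51 (0.671) and for PRK -0.61 ± 0.24 (0.179), with n = 3 arrays in each group of the limma fit. A missed threshold does not show that the lines responded alike. Resistant changes for these 5 genes were 2.82, 1.85, -1.84, -5.10 and -1.73, side by side with 3.73, 2.32, -2.43, -5.62 and -2.34 in the susceptible line.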

How the data were processed

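Leaf RNA was hybridised as biotin-labelled cRNA, 1 array per sample, per the labels' protocols. The deposited values are probe-set intensities made by the authors with MAS5, per the submitters' processing notes, which give no version. The sources used here give no detection calls. The 61290 probe sets include 111 controls, which were left out. Signals were analysed as log2(signal + 16), which understates changes of dim probe sets. Those above the array's 40th percentile in at least 3 of 18 arrays (46251) were tested, and 14928 were not tested. A 6-group linear model (limma 3.58.1, R 4.3.3, moderated variance with a trend) gave the tests, and its script was checked on simulated data. Alternatives were other scalings, offsets of 1 and 64, other filters, no variance trend, array weights, fewer arrays, a replicate block and leaving out single arrays.

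Symbols came from the platform annotation, and 770 of 771 genes were found in the IWGSC CS RefSeq v2.1 gene table, which supplied names for some LOC numbers. A probe set can also read related copies on the other subgenomes. The sequence tables used here hold none of these probes, so no sequence is printed. Named were the 15 largest called rises and falls with groups apart, members of the gene lists, up to 5 LOC genes and 2 probe sets without a gene per direction, and up to 8 genes per direction in the other comparisons. The members and lists were chosen with earlier results of these data known. An "at least" fold takes the dim group at the higher of its own signal and the 40th percentile. Precision is limited by the number of arrays, 3 in each group.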

Additional observations from a re-analysis of the deposited data

Results flagged for a closer look

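All of the following were picked out because the change from 0 h to 48 h differed between the lines in the limma fit (difference in log2 units, susceptible minus resistant, adjusted p under 0.05). Lower in the susceptible line were both probe sets of LOC543233 (-6.01 and -5.78), TaAffx.1074.1.S1_at (-5.72), LOC543363 (-5.22), LOC543234 (-5.22), LOC542941 (-4.16), TaGlu1a (-3.26), LOC542947 (-3.18) and LOC542853 (-1.35). Higher in the susceptible line were LOC543399 (3.96), Ta.9225.1.S1_at (3.91), LOC543085 (3.90), LOC606366 (3.52), LOC543003 (3.51), LOC543196 (3.50), LOC543438 (3.37), LOC100125731 (3.26) and 1 probe set of UBC1 (1.1). The calls of these held with each of the 12 arrays left out in turn. LOC543399 and Ta.9225.1.S1_at were under the 40th percentile on every 0 h array of both lines, LOC100125731 on every susceptible 0 h array and TaAffx.1074.1.S1_at on every susceptible 48 h array, so the sizes of these differences depend on the offset.

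For 11 others leaving out 1 array could end the call. Of these, LMGli2482 was under the 40th percentile on every 0 h array, LOC606359 on every susceptible array and every resistant 0 h array, LOC100037588 on every susceptible 48 h array and Rab15 on every resistant 48 h array. LMGli2482 (3.84) lost it without any of 10 of the 12 arrays, at differences of 2.89 to 3.99, and PsbP (-0.81) also without any of 10, at -0.85 to -0.71. Rab15 (2.19), a dehydrin gene, lost it without any of 8, at 1.94 to 2.27. Glc1 (1.0), Tubb5 (2.09), tubb1 (0.72) and LOC100037588 (-2.65) each lost it without any of 7, at 0.85 to 0.98, 1.68 to 2.09, 0.60 to 0.71 and -2.68 to -2.19. PEAMT1 (-1.26) and LOC543097 (1.47) lost it without any of 6, at -1.23 to -1.12 and 1.29 to 1.42. LOC606359 (-2.75) lost it without any of 5, at -2.79 to -2.22. A second UBC1 probe set (0.50) lost it without the third susceptible or the third resistant 0 h array, at 0.47 and 0.44.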

How the results depend on the processing

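The 48 h against 0 h count was 17064, and 15163 to 15817 with 1 of its 6 arrays left out. From 24 h to 48 h the range was 2904 to 4464, and for the difference between lines 1266 to 2892, or 1238 without the variance trend. With the replicate number as a block (replicate block) the 3 counts were 17044, 4825 and 2541. Same-numbered arrays did not deviate together (correlations -0.0213 to 0.0615), so the numbers were not taken as pairs. Of 117 called probe sets named at 48 h against 0 h, 79 kept their call and direction under every alternative, 33 lost the call under at least 1 and 14 turned under at least 1. For 24 h to 48 h these were 24, 23 and 1 of 47, and for the line difference 18, 11 and 0 of 29.

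All turned values came from scaling. Under quantile normalization rbcL read 0.12 and 0.10, ha1 0.33 and 0.34, cys1 0.07 and 0.12 and PRO1 0.00. Under hybridisation control scaling rbcL read 0.15, 0.15 and 0.02, TaTPC1 0.17, ha1 0.51, 0.46 and 0.20, cys1 0.33 and 0.36, la-17 0.28, FKBP70 0.34, GSTZ1 0.31, PRO1 0.28 and 0.11, and TEF1 from 24 h to 48 h 0.03. That scaling raised the median change from -0.0768 to 0.553, and whether the trimmed mean or the controls hold the fixed level was not tested. Some calls were lost when 1 array was dropped. The first ha1 probe set lost it in 5 of 6 cases (-0.26 to -0.18), the second in 2 (-0.24 and -0.21). Of the dim rbcL probe sets, one lost it without the third 48 h array or the first or second 0 h array (-1.05 to -0.71), another without the first 48 h or the second 0 h array (-1.28 and -1.31). tubb1 lost its 48 h call without the second or the third array of either time, at 0.35 to 0.38. In the 24 h to 48 h step, GA20ox1d lost its call in 4 of 6 cases, without the third 48 h array or any 24 h array (-1.82 to -1.34), and without the variance trend.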

Other observations

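Probe sets that the array maker's suffixes mark as able to read several transcripts were called more often at 48 h. Of tested probe sets with the suffix a, s and x, 53.6%, 51.6% and 47.6% were called, against 32.7% of those with none of these suffixes. These shares were not adjusted for signal, with which the share called rose steeply.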
